A study of Mus musculus with 30 samples.

Results

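The cytochrome P450 genes of families 2, 3 and 4 were described in small intestinal epithelium of mice given the aryl hydrocarbon receptor (AHR) ligand indolo[3,2-b]carbazole (ICZ). Members were all rows of the deposited count table whose gene symbol is Cyp2, Cyp3a or Cyp4 followed by a subfamily letter and a number, which leaves out the AHR-driven family 1. This gave 72 of 54146 genes, in 19 subfamilies. Of these, 25 were expressed, meaning a mean of at least 1 CPM (reads per 1000000 reads assigned to genes, with TMM-scaled library sizes) over the 29 libraries assigned to a group. A further 13 lay between 0.1 and 1 CPM, 24 had reads but a mean under 0.1 CPM, and 10 had 0 reads.

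Female C57BL/6 mice, 8 to 10 weeks old and wild type by their sample titles, were kept for 1 week on the semi-purified diet AIN93G, which lacks dietary AHR ligands. They received 10 µg of ICZ in corn oil by gavage, or the vehicle, 12 h before the small intestine was removed. EDTA released each mouse's epithelium in 5 successive steps, F1 to F5, so the 5 libraries of a mouse share 1 animal. Both the vehicle group and the ICZ group had 3 mice, with 15 vehicle and 14 ICZ libraries, since F1 of ICZ mouse 3 was not analysed here. The labels do not say from which part of the crypt-villus axis, or from which length of the small intestine, a fraction came.

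Cytochrome P450 enzymes are heme proteins of the endoplasmic reticulum that insert an oxygen atom into their substrates with electrons passed on by the P450 reductase Por. Families 2 and 3 hold most enzymes that oxidise drugs and dietary chemicals, and several Cyp2c and Cyp2j enzymes also make epoxides of arachidonic acid. Family 4 enzymes mainly hydroxylate the end carbon of fatty acids and of lipid mediators such as leukotriene B4. In the intestine these enzymes are best known from mature enterocytes, where Cyp3a enzymes act on orally taken drugs before they reach the liver. The nuclear receptors Nr1i2 (PXR) and Nr1i3 (CAR) induce many Cyp2b, Cyp2c and Cyp3a genes, and Hnf4a maintains basal transcription of many of them.

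The promoters of 4 expressed members are shown because the results below turn on these genes or because they carry a sequence that many members share. Sequences are from RefSeq on GRCm38.p6, run 5′ to 3′ on the gene's strand, cover up to 250 bases before the RefSeq start and stop before the GENCODE M21 gene model. Capitals mark CAAAGTCCA, a site of the nuclear receptor HNF4, and GCGTG, the core of the xenobiotic response element bound by AHR, each on either strand. The pair from the Cyp2c cluster holds the HNF4 site, Cyp2b10 and Cyp2c68 hold the AHR core, and Cyp2j6 holds neither in this window.
Cyp2c65 (chr19:39060756-39061005, plus strand): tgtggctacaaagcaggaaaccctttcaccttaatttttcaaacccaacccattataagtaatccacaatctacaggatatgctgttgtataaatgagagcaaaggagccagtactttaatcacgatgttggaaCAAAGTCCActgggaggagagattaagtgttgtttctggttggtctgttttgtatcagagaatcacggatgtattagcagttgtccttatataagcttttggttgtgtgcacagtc
Cyp2c68 (chr19:39741102-39741351, minus strand): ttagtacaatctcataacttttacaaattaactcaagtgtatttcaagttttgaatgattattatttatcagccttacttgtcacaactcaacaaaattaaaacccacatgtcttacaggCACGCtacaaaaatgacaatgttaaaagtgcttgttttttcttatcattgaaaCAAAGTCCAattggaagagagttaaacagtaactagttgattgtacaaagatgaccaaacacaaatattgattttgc
Cyp2b10 (chr7:25897408-25897619, plus strand): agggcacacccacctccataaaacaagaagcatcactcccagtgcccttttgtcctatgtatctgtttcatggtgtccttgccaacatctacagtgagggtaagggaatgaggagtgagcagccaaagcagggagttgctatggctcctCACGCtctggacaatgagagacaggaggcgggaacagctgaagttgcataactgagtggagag
Cyp2j6 (chr4:96553662-96553901, minus strand): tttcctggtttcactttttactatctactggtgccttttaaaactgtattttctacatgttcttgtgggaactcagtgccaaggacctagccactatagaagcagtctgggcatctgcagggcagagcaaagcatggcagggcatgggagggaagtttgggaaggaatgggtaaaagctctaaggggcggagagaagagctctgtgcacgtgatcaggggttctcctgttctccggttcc

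RefSeq promoter windows were found for 59 of the 72 members, 21 of them expressed. CAAAGTCCA was present within the 250 bases before the start in 8 of the 59 members, against 0.451% of all 27025 genes with a window. The 8 were Cyp2c40, Cyp2c65, Cyp2c67, Cyp2c68, Cyp2c69, Cyp2c70, Cyp3a11 and Cyp3a16, neighbours within 2 gene clusters whose copies resemble each other, so these matches are not independent. Of these, Cyp2c65, Cyp2c68 and Cyp3a11 were expressed, Cyp2c67, Cyp2c69 and Cyp2c70 had means under 1 CPM, and Cyp2c40 and Cyp3a16 had 0 reads. GCGTG was present in 10 of the 59 members, 6 of them expressed (Cyp2b10, Cyp2c68, Cyp2j9, Cyp4f14, Cyp4f16 and Cyp4v3), against 30.9% of all genes. TATAAA was found in 22 of the 59 (14.3% of all genes) and CCAAT in 25 (37.5% of all genes). TTTATNG, a site of the intestinal factors CDX1 and CDX2, was found in 7 (11.3% of all genes). All 5 motifs were searched on both strands. TTTATAG, one form of the CDX site, contains TATAAA on its other strand, and no other motif contains another. A match is a stretch of letters and does not show that a factor binds there.

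Gene reads per library ranged from 4359673 to 7819837. F5 of ICZ mouse 1 stood apart, with 54.3% of its gene reads in 10 genes, where the median library had 26.8%. Genes of the pancreatic acinus summed to 1889 CPM in F5 of vehicle mouse 3 and to 1280 in F5 of ICZ mouse 3, and to at most 69.7 in the other libraries. Genes typical of the proximal intestine summed to 1093 CPM in F5 of vehicle mouse 2 and to between 351 and 746 elsewhere. Absorptive enterocyte markers were present in every library, and 9 hepatocyte markers summed to between 6.09 and 22.3 CPM with Fga at 0 reads.

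Most of the P450 signal came from 4 subfamilies. Cyp3a genes held 33.6% of the summed CPM of all 72 members, Cyp4f 24.3%, Cyp2d 14.1% and Cyp4v 12.0%. Cyp2j followed with 5.57%, Cyp2c with 4.30% from 15 genes, and Cyp2b with 2.58%. Libraries were made from the 3′ ends of transcripts, which sample each transcript near its end, so CPM was compared between genes without scaling by length. Levels can still differ through how uniquely a gene's 3′ end can be mapped.

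The highest member was Cyp3a13, a Cyp3a enzyme, with a mean of 672 CPM and rank 129 among the 31221 genes with reads. Its gene lies on chromosome 5 at 137892932 to 137921619 (GRCm38), apart from the other Cyp3a genes, and shared none of the 50-base words of its last 300 transcript bases with another gene. Cyp4f14, a leukotriene B4 hydroxylase, had a mean of 502 CPM. Cyp2d26, one of the Cyp2d genes, had 330 CPM. Cyp4v3, a fatty acid hydroxylase whose human counterpart is mutated in a crystalline retinal dystrophy, had 303 CPM. Neighbours in this order overlapped over the 29 libraries, with ranges of 256 to 1423, 205 to 799, 172 to 571 and 117 to 567 CPM.

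The other leading genes lie on chromosomes 17 (Cyp4f14, 32905070 to 32917342), 15 (Cyp2d26, 82790101 to 82794294) and 8 (Cyp4v3, 45304944 to 45333216).

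A middle group lay between 29.9 and 136 CPM. Cyp2j6, one of the Cyp2j genes on chromosome 4 (96516138 to 96553661), had 136 CPM. Cyp3a11, the main Cyp3a enzyme of mouse liver, had 89.4, and its neighbour Cyp3a25 82.7. Cyp2b10, the classical CAR target, had 64.8 CPM and Cyp4f16 63.9. Cyp2c65, Cyp4f13, Cyp2c68 and Cyp2u1, the last a fatty acid hydroxylase, lay close together at 41.8, 40.9, 39.5 and 39.4 CPM, and their ranges over libraries overlapped almost fully. Cyp2s1, which is expressed in many epithelia, had 29.9 CPM.

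Low levels were seen for the other 11 expressed members: Cyp2d22 at 24.0 CPM, Cyp4b1 at 12.9, Cyp2c55 at 9.73, Cyp2c66 at 9.64, Cyp2c44 at 5.88 and Cyp4a10, a fatty acid hydroxylase controlled by PPARα, at 3.78. Below these stood Cyp2j9 at 3.59, Cyp4f40 at 2.82, Cyp2t4 at 1.64, Cyp3a44 at 1.27 and Cyp2r1, a vitamin D 25-hydroxylase, at 1.05 CPM. Cyp2r1 was the member just inside the limit of 1 CPM and Cyp4f15, at 0.94 CPM, the one just outside.

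**Figure D1:**
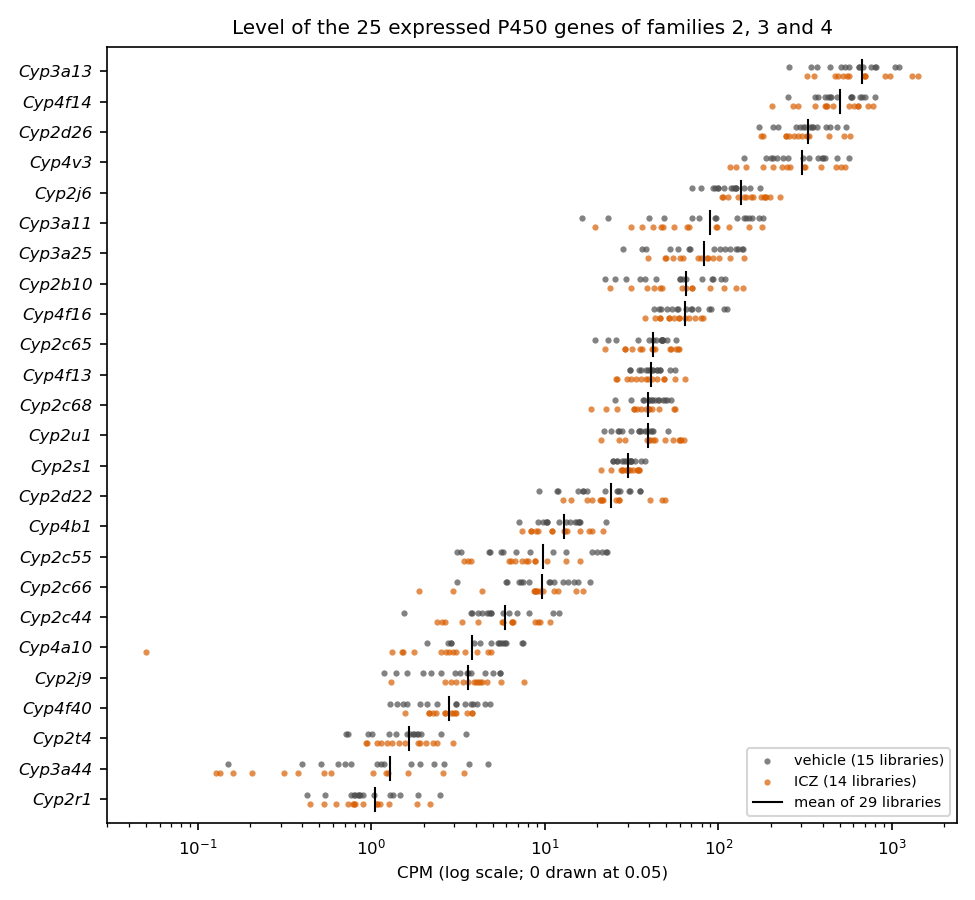
Level of the 25 expressed members in CPM on a log scale, 1 point per library (15 vehicle, 14 ICZ), with a bar at the mean of the 29 libraries. Means run from 672 CPM for Cyp3a13 to 1.05 for Cyp2r1, and vehicle and ICZ points overlap for every gene over all fractions.

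Many genes that are abundant in liver were at or near 0. The 4 Cyp2a genes summed to a mean of 0.0295 CPM, and Cyp2e1, the ethanol-oxidising enzyme, had 0.541 CPM. Cyp2c37, Cyp2c54 and Cyp2a12 had 0 reads, as did Cyp2c39, Cyp2c40, Cyp3a16, Cyp2b9, Cyp2g1, Cyp4a29 and Cyp2a22. A count of 0 allows up to 3 reads, or 0.0161 CPM over the 186443428 gene reads of all libraries, for counting error only. Only 5 of the 15 Cyp2c genes were expressed, 2 of 8 Cyp2d, 4 of 9 Cyp4f, 2 of 8 Cyp2j, 1 of 5 Cyp2b, 1 of 5 Cyp4a and 4 of 7 Cyp3a. Near-identical copies limit these counts: 32.3% of the 50-base words in the last 300 bases of Cyp2c68 occur in Cyp2c40 or Cyp2c67, and the shares for Cyp2d26, Cyp2d22, Cyp3a44 and Cyp3a25 were 26.7%, 23.1%, 23.1% and 14.9%. The strand setting of the counting is not given in the sources used here, and Cyp2u1, Cyp2s1, Cyp2t4, Cyp2c55 and Cyp4f18 overlap a gene on the other strand, so their reads cannot be told apart from those of that gene. Cyp4v3 overlaps the predicted gene Gm45753 on its own strand.

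Most expressed members fell from the first to the last fraction. In vehicle mice 28 members entered the test of a slope over fraction number, 20 fell and 0 rose, while of all 13164 genes tested 16.7% fell and 18.3% rose. In ICZ mice 17 of 23 fell and 0 rose, where 16.2% of 12869 genes fell and 14.7% rose. The median log2 slope was -0.19 per fraction over the members in vehicle mice and -0.26 in ICZ mice, against 0.01 over all genes in both. Calls were made at an adjusted p of 0.05 by edgeR's quasi-likelihood method, blocking on the mouse. These p-values measure the scatter of libraries within mice around a shared slope, so libraries were the units, not mice. DESeq2 called the slopes of 20 members in vehicle and 17 in ICZ mice, against 36.3% and 32.5% of all genes in either direction (35.0% and 30.9% in edgeR). Among the 25 expressed members F1 lay above F5 without overlap for 14 in vehicle and 19 in ICZ mice, as it did for 17.7% and 25% of all genes. Cyp2t4 in ICZ mice was the member with the opposite order. All 17 members that fell in ICZ mice had also fallen in vehicle mice, where they made up 85.0% of the 20. Fewer enterocytes and less RNA per enterocyte cannot be told apart in these bulk fractions.

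Summed over the 72 members, the level went from 3572 ± 513 CPM in F1 of vehicle mice to 2714 ± 505, 2479 ± 556, 2033 ± 670 and 1774 ± 519 in F2 to F5 (SD, n = 3). In ICZ mice it went from 4200 ± 253 (n = 2) to 3004 ± 634, 2539 ± 325, 1968 ± 130 and 1455 ± 255 CPM (n = 3). In both treatments F1 was highest and F5 lowest by mean. The shares of the subfamilies within this sum were described without a test. Cyp3a held 35.7% ± 1.27 in F1 and 32.6% ± 7.43 in F5 of vehicle mice, and Cyp4f held 23.2% ± 0.454 and 25.5% ± 3.00. The share of Cyp4v3 was 13.3% ± 0.930 in F1 and 10.5% ± 1.21 in F5, and that of Cyp2s1 0.887% ± 0.0615 and 1.64% ± 0.414.

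Among the drug-metabolising Cyp3a genes, Cyp3a13 in vehicle mice 1, 2 and 3 had 1102, 1045 and 808 CPM in F1, 764, 680 and 541 in F2, 798, 512 and 563 in F3, 651, 342 and 372 in F4, and 440, 644 and 256 in F5. In ICZ mice 1 and 2 it had 1306 and 1423 CPM in F1, and in mice 1, 2 and 3 it had 523, 325 and 355 in F5. F1 and F5 did not overlap in either treatment. The log2 slope per fraction was -0.29 ± 0.05 (SE; edgeR adjusted p = 0.000583) in vehicle mice and -0.40 ± 0.04 (adjusted p = 3.01e-06) in ICZ mice. In F5 of vehicle mouse 2, the library with the high proximal intestine genes, Cyp3a13 was at 644 CPM after 342 in F4. Its vehicle slope was -0.38 without that library.

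Cyp3a11 had 171, 182 and 145 CPM in F1 and 97.4, 141 and 16.3 in F5 of vehicle mice, and 150 and 178 in F1 and 97.7, 19.5 and 36.3 in F5 of ICZ mice. F5 libraries differed more from each other than F1 libraries did. Its vehicle slope of -0.34 ± 0.12 passed the edgeR test narrowly (adjusted p = 0.0478). It was -0.54 without F5 of vehicle mouse 2, where the level had gone from 39.7 CPM in F4 to 141 in F5 (adjusted p = 0.000857). The adjusted p was 0.0869 with no filter on low counts, 0.0537 with upper quartile normalization, 0.198 without the mouse block, 0.112 without vehicle mouse 1 and 0.424 without vehicle mouse 3.

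Cyp3a25 had 117, 139 and 102 CPM in F1 and 109, 58.5 and 28.2 in F5 of vehicle mice. Vehicle mouse 1 stayed high through F5, so F1 and F5 overlapped, while in the ICZ mice F1 (79.7 and 141) lay above F5 (49.6, 39.1 and 49.0). The slopes were -0.27 ± 0.06 and -0.29 ± 0.07, and the vehicle slope was -0.17 without vehicle mouse 3. Cyp3a44 had the steepest slope of all members, -0.62 ± 0.12 (edgeR adjusted p = 0.000533), at a low level: 4.71, 3.64 and 2.63 CPM in F1 and 1.07, 0.399 and 0.704 in F5 of vehicle mice. It did not enter the test in ICZ mice, where F1 had 2.58 and 3.43 CPM and F5 between 0.127 and 0.534.

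Of the Cyp4 genes, the fatty acid hydroxylase Cyp4v3 gave the smallest p of all members. It had 486, 567 and 376 CPM in F1 and 206, 202 and 140 in F5 of vehicle mice, and 507 and 540 in F1 and 145, 127 and 117 in F5 of ICZ mice. F1 exceeded F5 by 2.61 and 4.04 times by mean, with no overlap. The slopes were -0.33 ± 0.03 (edgeR adjusted p = 6.49e-07) and -0.46 ± 0.04 (adjusted p = 1.11e-06). Cyp4f14 had 702, 799 and 581 CPM in F1 and 431, 374 and 253 in F5 of vehicle mice, and 642 and 777 in F1 and 287, 270 and 205 in F5 of ICZ mice. Again no F5 value reached an F1 value. Its slopes were -0.23 ± 0.03 and -0.34 ± 0.04.

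Cyp4f16 had 112, 76.2 and 53.9 CPM in F1 and 65.2, 47.0 and 42.7 in F5 of vehicle mice, and 81.4 and 79.1 in F1 and 43.2, 45.8 and 37.7 in F5 of ICZ mice. The vehicle mice differed so much from each other that F1 and F5 overlapped, but each of the 3 fell. Slopes were -0.15 ± 0.03 and -0.22 ± 0.03 for Cyp4f16, -0.14 ± 0.03 and -0.25 ± 0.04 for Cyp4f13, and -0.16 ± 0.05 and -0.21 ± 0.07 for Cyp4b1. Cyp4f40 and Cyp4a10 did not pass the test in either treatment, with vehicle slopes of 0.04 ± 0.09 and -0.06 ± 0.06.

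Among the Cyp2 genes, Cyp2d26 had 482, 543 and 441 CPM in F1 and 296, 279 and 172 in F5 of vehicle mice, and 571 and 531 in F1 and 247, 175 and 181 in F5 of ICZ mice. F1 lay above F5 in both treatments, with slopes of -0.25 ± 0.04 and -0.31 ± 0.03. Its paralog Cyp2d22, at a mean of 24.0 CPM, had slopes of -0.31 ± 0.04 and -0.35 ± 0.04. Cyp2b10 had 109, 80.9 and 65.5 CPM in F1 and 60.2, 22.1 and 25.2 in F5 of vehicle mice, and 138 and 89.5 in F1 and 65.4, 31.5 and 23.7 in F5 of ICZ mice. Its slopes were nearly the same in both treatments, -0.32 ± 0.04 and -0.32 ± 0.03.

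Cyp2j6 had 140, 173 and 126 CPM in F1 and 93.5, 79.4 and 70.7 in F5 of vehicle mice. In ICZ mice it had 199 and 225 in F1 and 107, 114 and 105 in F5. No F5 value reached an F1 value of the same treatment. The slopes were -0.19 ± 0.03 (edgeR adjusted p = 4.84e-05) and -0.21 ± 0.03 (adjusted p = 3.15e-05). Cyp2u1 had slopes of -0.15 ± 0.04 and -0.27 ± 0.04.

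The Cyp2c genes fell less evenly. Cyp2c44, an epoxygenase, had slopes of -0.37 ± 0.06 and -0.47 ± 0.06, and Cyp2c68 of -0.14 ± 0.03 and -0.25 ± 0.04. Cyp2c65 had 47.9, 47.5 and 47.3 CPM in F1 and 47.1, 43.9 and 19.4 in F5 of vehicle mice, so that vehicle mouse 1 had the same level at both ends. In ICZ mice it had 41.7 and 59.4 CPM in F1 and 29.1, 28.8 and 22.1 in F5. Its vehicle slope was -0.13 ± 0.05, and -0.04 without vehicle mouse 3. Without F5 the ICZ slope was -0.07 (adjusted p = 0.410). Cyp2c66 had slopes of -0.21 ± 0.07 and -0.39 ± 0.09. Both were lost without F5 (adjusted p = 0.206 and 0.152), as were the ICZ slopes of Cyp3a25 (0.205) and Cyp4b1 (0.224) and the vehicle slope of Cyp2u1 (0.0987). Cyp2c55 and Cyp2c29 fell in vehicle mice, with slopes of -0.20 ± 0.06 and -0.48 ± 0.18; in ICZ mice Cyp2c55 had -0.21 ± 0.09 (adjusted p = 0.0954) and Cyp2c29 was too low to test. The vehicle slope of Cyp2c55 was -0.12 without vehicle mouse 2, -0.14 without vehicle mouse 3 and -0.13 without the mouse block. The call of Cyp2c29 was lost whichever vehicle mouse was left out.

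Several of these calls rested on 1 mouse or on the mouse block. Without vehicle mouse 3 the vehicle slopes of 8 members missed the threshold, with edgeR adjusted p of 0.0989 for Cyp2c29, 0.214 for Cyp2c55, 0.520 for Cyp2c65, 0.288 for Cyp2c66, 0.0600 for Cyp2c68, 0.424 for Cyp3a11, 0.105 for Cyp3a25 and 0.160 for Cyp4b1. Without vehicle mouse 2 they were 0.218 for Cyp2c29, 0.221 for Cyp2c55, 0.145 for Cyp2c66 and 0.0595 for Cyp3a25, and without vehicle mouse 1 they were 0.0565 for Cyp2c29 and 0.112 for Cyp3a11. Without the mouse block they were 0.115 for Cyp2c29, 0.626 for Cyp2c55, 0.203 for Cyp2c65, 0.178 for Cyp2c66, 0.2001 for Cyp3a25, 0.198 for Cyp3a11, 0.0580 for Cyp2b10 and 0.0889 for Cyp4f16. Among the ICZ slopes, those of Cyp3a11, Cyp3a25, Cyp2c65, Cyp2c66 and Cyp4b1 were lost without ICZ mouse 2 (adjusted p of 0.0875, 0.203, 0.189, 0.118 and 0.608). The ICZ slope of Cyp3a11 was then -0.16 against -0.40 in all mice, that of Cyp3a25 -0.16 and that of Cyp4b1 -0.08. The ICZ slope of Cyp4b1 was also lost without ICZ mouse 1 (0.0514) and with upper quartile normalization (0.0545).

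**Figure D2:**
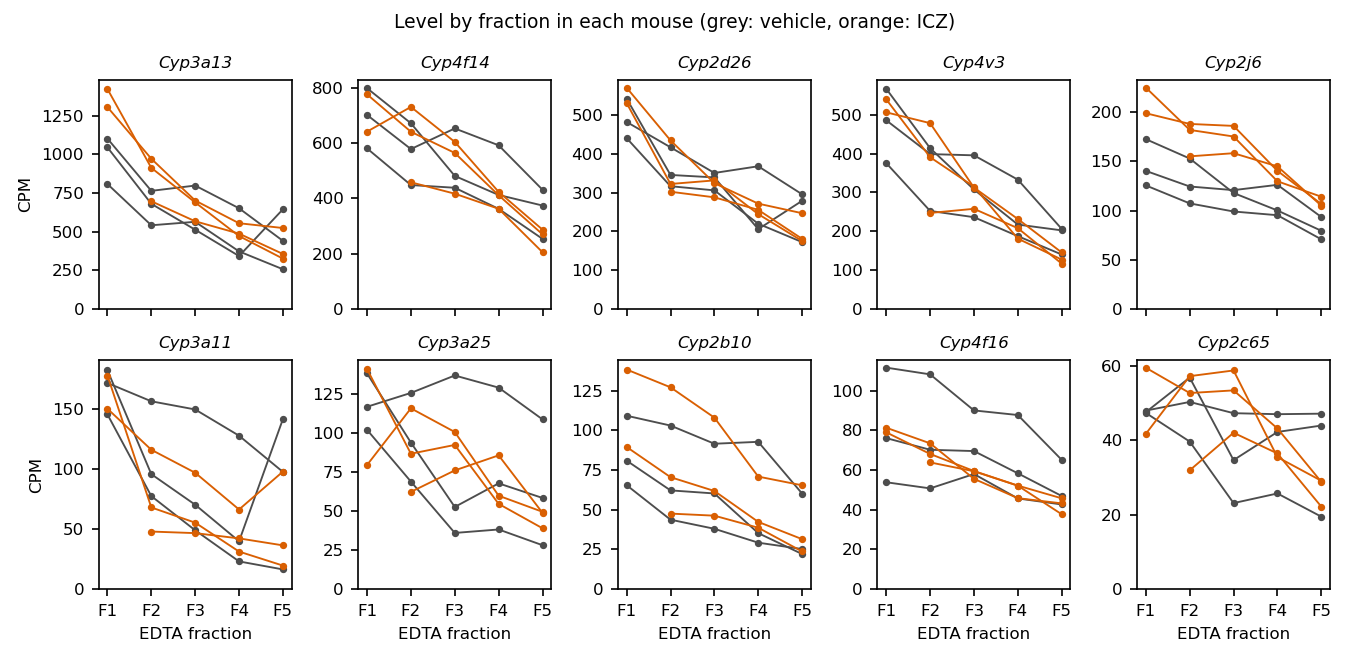
Level in CPM (linear axis from 0) over the fractions F1 to F5 for the 10 members of highest mean, 1 line per mouse (grey, 3 vehicle mice; orange, 3 ICZ mice, mouse 3 without F1). In vehicle mouse 2, Cyp3a13 rises from 342 to 644 CPM and Cyp3a11 from 39.7 to 141 CPM between F4 and F5, and no F5 point of Cyp4v3 or Cyp4f14 reaches an F1 point of the same treatment.

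The slope of Cyp2s1 did not pass in either treatment. It had 36.0, 33.3 and 25.9 CPM in F1 and 30.8, 27.7 and 24.8 in F5 of vehicle mice, and 30.1 and 29.2 in F1 and 21.1, 34.0 and 27.5 in F5 of ICZ mice, so the fractions overlapped. Its slopes were -0.04 ± 0.03 (edgeR adjusted p = 0.334) and -0.05 ± 0.03 (adjusted p = 0.266). Cyp2j9 (-0.07 ± 0.10 and 0.08 ± 0.09) and Cyp2t4 (0.10 ± 0.11 and 0.16 ± 0.11) did not pass either, at a few CPM, and Cyp2r1, Cyp4f15 and Cyp4f18 were tested in vehicle mice only and did not pass.

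Slopes of members were compared in 6 pairs, chosen after their values were seen, with the slope of log2(CPM + 0.5) fitted within each of the 6 mice. The slopes of ICZ mouse 3 cover F2 to F5 only, since its F1 was not analysed here, while those of the other mice cover F1 to F5. The slope of Cyp4v3 lay below that of Cyp2s1 in 6 of 6 mice, by 0.34 ± 0.12 (SD) on average, and that of Cyp2d22 below that of Cyp2d26 in 6 of 6 by 0.04 ± 0.03. Both had p = 0.0313 in an exact two-sided sign-flip permutation test, the smallest that 6 mice allow, and an adjusted p of 0.0938 over the 6 pairs. Cyp4f14 lay below Cyp4f16 and Cyp2j6 below Cyp2j9 in 5 of 6 mice, by 0.10 ± 0.09 and 0.23 ± 0.17 (exact adjusted p = 0.0938 each). Cyp3a13 lay below Cyp3a25 in 4 of 6 mice by 0.10 ± 0.14 (exact adjusted p = 0.225) and Cyp2c68 below Cyp2c65 in 4 of 6 by 0.03 ± 0.10 (0.469). No pair passed 0.05 after adjustment, which with 6 mice needs at least 4 of the 6 pairs at the smallest p. The p-values and the adjustment do not account for choosing these pairs by their slopes, so no difference is concluded from them.

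**Figure D3:**
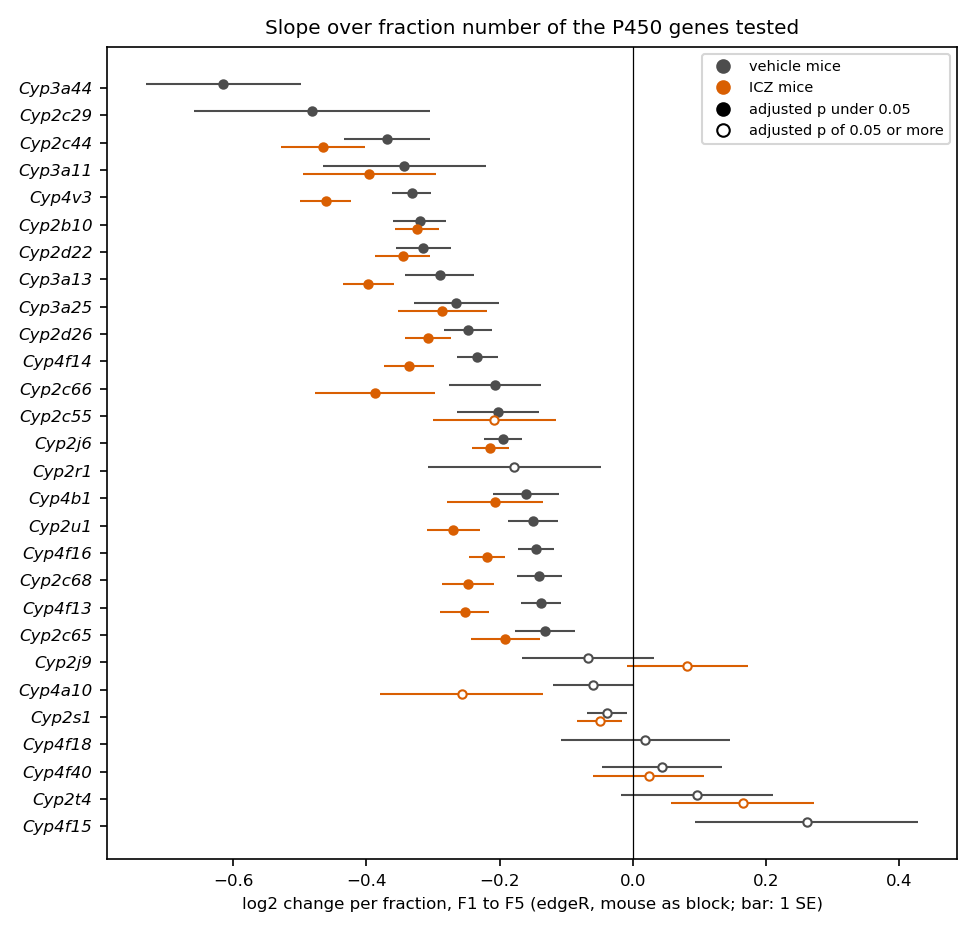
Log2 change per fraction over F1 to F5 for the 28 members tested in vehicle mice (grey) and the 23 tested in ICZ mice (orange), with bars of 1 SE and filled points for an edgeR adjusted p under 0.05. All filled points lie below 0, from -0.62 for Cyp3a44 to -0.13 for Cyp2c65, and Cyp2s1 lies near 0 in both treatments.

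Tested for any difference between the 5 fractions of vehicle mice instead of a slope, 13 of 28 members passed, against 20.6% of all genes. The 13 were Cyp4v3, Cyp2b10, Cyp2d22, Cyp4f14, Cyp2d26, Cyp2j6, Cyp3a44, Cyp4f16, Cyp2c44, Cyp3a13, Cyp4f13, Cyp2u1 and Cyp2c68. This count was 1 without vehicle mouse 3, 6 without vehicle mouse 2 5 without the mouse block (11.0% of all genes), and 15 in DESeq2 (24.5%). The slope count of 20 was 12 without vehicle mouse 3 and 12 without the mouse block (30.9% of all genes; in ICZ mice 17 members and 29.7%), and it was 20 without F5 of vehicle mouse 2.

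Markers of several cell types moved over the same fractions. Of 14 absorptive enterocyte markers 12 fell in vehicle mice and 13 in ICZ mice, and 0 rose, with median log2 slopes of -0.30 and -0.32. Their sum ranged from 33720 to 44190 CPM in F1 and from 11890 to 25160 in F5 of vehicle mice. Of 12 proliferation genes 11 rose in vehicle mice and 10 in ICZ mice. Of 12 genes of dissociation stress 12 and 10 rose. Goblet cell markers fell in 4 of 7 in each treatment, with a median log2 slope of -0.29 in vehicle mice, where 1 rose. Intraepithelial T cell genes fell in 5 of 9 in vehicle mice and 0 of 9 in ICZ mice. Stroma genes rose in 0 of 2 tested in vehicle mice and 5 of 5 tested in ICZ mice. Pancreatic acinar genes rose in 0 of 1 and 6 of 7 tested. Stem cell markers rose in 7 of 8 in vehicle and 5 of 8 in ICZ mice, and Paneth cell markers in 7 of 7 and 0 of 7. The median log2 slopes of the Paneth cell markers were 0.33 in vehicle and 0.22 in ICZ mice, both upward. In F5 their sum was 3119 CPM in ICZ mouse 1, against 13270 and 24140 in ICZ mice 2 and 3. Differences between the treatments in these lists were not tested. The part of these lists in the P450 slopes was not tested. Vehicle mouse 1, in which Cyp3a25 and Cyp2c65 had nearly the same level in F1 and F5, also had the highest enterocyte sum in F5, 25160 CPM, against 20040 and 11890 in vehicle mice 2 and 3.

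P450 enzymes need electron donors and other partner proteins. Of 11 such genes 10 were tested; 6 fell over the fractions of vehicle mice and 7 in ICZ mice, and 0 rose. The reductase Por had a vehicle slope of -0.18 ± 0.03 and went from 223 ± 41.0 CPM in F1 to 132 ± 35.9 in F5 (SD, n = 3). The epoxide hydrolase Ephx2, which opens fatty acid epoxides, had -0.34 ± 0.04, and the heme-binding membrane protein genes Pgrmc2 and Pgrmc1 -0.22 ± 0.04 and -0.14 ± 0.03. Cyb5b and Cyb5r3 of the cytochrome b5 system had -0.17 ± 0.03 each, while Cyb5a had -0.06 ± 0.03 in vehicle mice, which did not pass, and -0.17 ± 0.04 in ICZ mice, which did. The difference was not tested. Fech and Alas1 of heme synthesis and Ephx1 passed in neither treatment.

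Of 14 transcription factors known to control P450 genes, 6 fell and 1 rose over the fractions in each treatment. PXR (Nr1i2) went from 144 ± 2.70 CPM in F1 to 110 ± 2.85 in F5 of vehicle mice, with slopes of -0.08 ± 0.03 and -0.17 ± 0.03. Its partner Rxra had -0.13 ± 0.02 and -0.09 ± 0.03, Hnf4g -0.14 ± 0.03 and -0.15 ± 0.03, Nr1h3 -0.14 ± 0.03 and -0.14 ± 0.03, and the repressor Nr0b2 -0.27 ± 0.06 and -0.33 ± 0.07. Arnt fell in vehicle mice (-0.11 ± 0.04) and Vdr in ICZ mice (-0.09 ± 0.03). The bile acid receptor Nr1h4 rose, by 0.09 ± 0.03 and 0.10 ± 0.03. Hnf4a, at a mean of 286 CPM, and Nr1i3 (CAR), at 1.53 CPM, did not pass.

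The question of the treatment comparison was whether ICZ changed these genes. After summing each mouse's counts over F2 to F5, 29 members were tested. Without a block 0 passed in edgeR's quasi-likelihood test, where 0% of all 15497 genes passed. At an unadjusted p under 0.05 there were 3 members, Cyp2j6, Cyp2u1 and Cyp4a10, against 5.72% of all genes. DESeq2 called 0 members and 0.0839% of the genes. The replicate numbers of vehicle and ICZ mice, which are different animals, went with shared deviations in these summed counts. No label says that these mice were paired. With the number as a block 3 members passed, against 1.49% of all genes. In the same fit 6 of 12 proliferation genes were higher and 7 of 12 genes of dissociation stress lower in ICZ mice, while 1 of 14 enterocyte markers was higher and 2 lower. The part of these lists in the P450 values was not tested.

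Cyp2j6 had 119, 114 and 94.2 CPM in vehicle mice and 162, 150 and 146 in ICZ mice. Every ICZ mouse lay above every vehicle mouse, which held for 11.4% of all genes in either direction and for no other member tested. The means were 109 ± 13.1 and 153 ± 8.39 CPM (SD, n = 3), a ratio of 1.40. The log2 fold change was 0.49 ± 0.10 (SE) with an adjusted p of 0.846 in edgeR, 0.126 in DESeq2 and 0.00136 with the replicate block, and over the alternatives tried the adjusted p lay between 0.00136 and 0.9999. The exact permutation p was 0.1, the smallest that 3 against 3 mice can give. Without F5 the fold change was 0.48.

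Cyp2j6 was also higher without overlap in each fraction taken alone, where F1 to F5 of a mouse share the animal and are no independent support. Of the 11346 genes tested in all 5 fractions 0.0264%, or 3 genes, were higher in this way in all 5. In F1 the ICZ mice had 199 and 225 CPM and the vehicle mice 140, 173 and 126. In F2 they had 188, 182 and 155 against 125, 153 and 107. In F3 they had 186, 175 and 158 against 121, 118 and 99.1. In F4 they had 140, 130 and 145 against 126, 100 and 95.3. In F5 they had 107, 114 and 105 against 93.5, 79.4 and 70.7. The smallest gap was that of F2, from 153 to 155 CPM. The log2 fold changes were 0.55 ± 0.14, 0.40 ± 0.13, 0.60 ± 0.11, 0.40 ± 0.13 and 0.46 ± 0.17 from F1 to F5, with edgeR adjusted p between 0.250 and 1.00. In F3 DESeq2 gave an adjusted p of 0.0462 and edgeR without vehicle mouse 1 one of 0.00467. The share of Cyp2j in the sum of all members was 4.22%, 4.92%, 4.78%, 5.63% and 4.99% in F1 to F5 of vehicle mice, and 5.14%, 6.10%, 7.05%, 7.34% and 7.98% in ICZ mice. In F5 the sum itself was lower in ICZ mice, as given above.

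Cyp2u1 had 37.5, 32.8 and 28.3 CPM in vehicle mice and 47.8, 45.1 and 36.9 in ICZ mice, so that the lowest ICZ mouse overlapped the highest vehicle mouse. The log2 fold change was 0.40 ± 0.13 (edgeR adjusted p = 0.846, and 0.0133 with the replicate block). In single fractions it was 0.52 ± 0.16, 0.63 ± 0.20, 0.40 ± 0.15, 0.31 ± 0.15 and 0.06 ± 0.20 from F1 to F5. The groups did not overlap in F1, F2 and F4, and 0.661% of the genes tested in all fractions were higher without overlap in at least 3. Cyp4a10 had 3.02, 5.77 and 5.67 CPM in vehicle mice and 1.54, 3.18 and 3.63 in ICZ mice, with a log2 fold change of -0.79 ± 0.34 (adjusted p = 0.846, and 0.0371 with the block). In both treatments mouse 1 had the lowest level.

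Cyp2b10 had 89.1, 45.6 and 34.4 CPM in vehicle mice and 95.7, 50.9 and 40.7 in ICZ mice. The groups overlapped, and within each of the 3 pairs of equal replicate number the ICZ mouse was the higher. Of 29 members tested, 12 had the same sign in all 3 pairs, as did 36.7% of all genes, and 3 pairs cannot give an exact p under 0.25. The 6 higher ones were Cyp2b10, Cyp2d22, Cyp2j6, Cyp2t4, Cyp2u1 and Cyp3a13, and the 6 lower ones Cyp2c68, Cyp3a44, Cyp4a10, Cyp4f13, Cyp4f14 and Cyp4f18. The groups of the enzymes of highest level overlapped too. Cyp3a13 had 557 ± 126 CPM in vehicle and 615 ± 78.0 in ICZ mice, Cyp4f14 483 ± 101 and 459 ± 79.8, Cyp2d26 306 ± 55.5 and 286 ± 35.0, and Cyp4v3 280 ± 70.0 and 257 ± 44.7 (SD, n = 3).

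**Figure D4:**
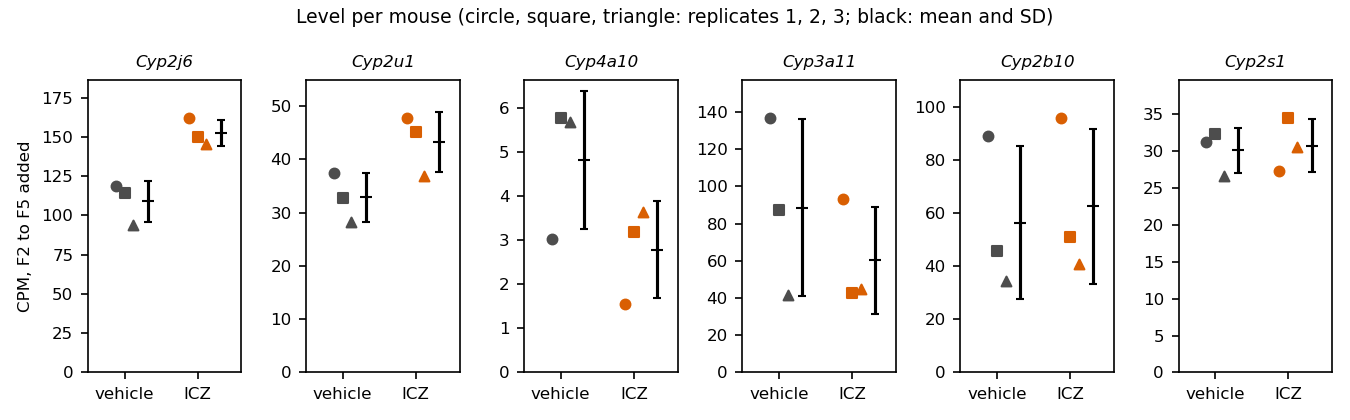
Level of 6 members in CPM (linear axes from 0) with F2 to F5 added per mouse, in 3 vehicle (grey) and 3 ICZ mice (orange), with the mean and SD in black and 1 symbol per replicate number. Cyp2j6 is the member without overlap, at 94.2 to 119 and 146 to 162 CPM. Cyp2j6, Cyp2u1, Cyp3a11 and Cyp2b10 are highest in replicate 1 of both treatments.

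Within single fractions no member passed the main test: 0 of 25 in F1 (0.0324% of all genes passed), 0 of 23 in F2 (0.0165%), 0 of 22 in F3 (0.00815%), and 0 of 23 in F4 and in F5 (0% each). At an unadjusted p under 0.05 there were 5, 2, 5, 1 and 4 members, against 4.39%, 12.0%, 9.15%, 2.89% and 2.79% of all genes. DESeq2 called 1 member, Cyp2j6, in F3 (0.0978% of all genes), and 0 in F1, F2, F4 and F5 (0.146%, 1.03%, 0.0331% and 0.0408%). The replicate block gave 1 in F3, again Cyp2j6 (0.187%), and 0 in F1, F4 and F5 (0.365%, 0.0413% and 0.0653%). With the replicate block 3 members passed in F2, against 1.82% of all genes: Cyp2j6 (0.41, adjusted p = 0.0478), Cyp2u1 (0.64, 0.0127) and Cyp3a11 (-0.59, 0.00913). Cyp3a11 had 156, 95.5 and 77.3 CPM in F2 of vehicle mice 1, 2 and 3 and 116, 67.9 and 47.8 in ICZ mice of the same numbers. The groups overlapped, and without the block its log2 fold change was -0.56 ± 0.42 (edgeR adjusted p = 0.652). Groups without overlap were seen for 6 of 25 members in F1 (19.9% of all genes), 2 of 23 in F2 (16.9%), 2 of 22 in F3 (14.9%), 2 of 23 in F4 (9.11%) and 2 of 23 in F5 (7.99%), Cyp2j6 among them each time. In F1 the ICZ levels of Cyp3a13 (1306 and 1423 CPM) and Cyp2d22 (47.3 and 49.3) lay above all vehicle levels (808 to 1102 and 27.2 to 35.2), with adjusted p of 0.783 and 0.624. Cyp2t4 was lower without overlap in F1, at 0.94 and 1.07 CPM against 1.39 to 1.76, and Cyp4a10 in F5.

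Whether the ICZ effect differed between fractions was tested in all 29 libraries. For the 4 treatment by fraction terms together 0 of 29 members passed, against 0.00711% of genes, and for a slope of the effect over fraction number 0 of 28, against 0.0147%. At an unadjusted p under 0.05 these tests gave 2 and 6 members, and 5.22% and 5.40% of all genes. The smallest p was that of Cyp4v3, whose slope was lower in ICZ mice by 0.13 ± 0.05 per fraction (edgeR adjusted p = 0.697). None of the 10 partner genes and 14 transcription factors tested passed in the summed comparison. Nr0b2 came nearest with the block, at -0.80 (adjusted p = 0.0597).

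Mice of 1 group differed several-fold in some members and hardly in others. With F2 to F5 added, the coefficient of variation over the 3 vehicle mice was 83.6% for Cyp2c55, 54.3% for Cyp3a25, 53.7% for Cyp3a11 and 51.2% for Cyp2b10, and 4.39% for Cyp4f13, 8.38% for Cyp2c68 and 10.1% for Cyp2s1. Cyp2c55, best known from the colon, had 21.3 CPM in vehicle mouse 1 and 7.12 and 4.27 in mice 2 and 3. In the ICZ mice it had 11.5, 5.97 and 5.97. Cyp3a11 had 137, 87.6 and 41.6 CPM in vehicle mice and 93.4, 42.4 and 44.7 in ICZ mice. Vehicle mouse 1 and ICZ mouse 1 were the highest of their group for Cyp2b10, Cyp2c55, Cyp3a11, Cyp3a13, Cyp3a25 and Cyp2d26 alike. The same held for Cyp4f14, Cyp4v3, Cyp2j6, Cyp2c65, Cyp4f13, Cyp2u1, Cyp2d22, Cyp2c66 and Cyp3a44, but not for the other expressed members. No label says what mice with the same number share. The titles also carry a number after WT, which is equal in both treatments for replicates 2 and 3 but differs for replicate 1. In F2 to F5 mouse 1 also had the highest enterocyte sum of its group. It was 33070 CPM against 18690 and 16630 in F4 of vehicle mice, and 39720 against 30990 and 22760 in F2 of ICZ mice. The excess was smallest in F4 of ICZ mice, at 23040 CPM against 21590 and 21740. In F2 to F5 the stem cell and Paneth cell sums of mouse 1 were the lowest of its group. The part of these cell types in the spread between mice was not tested.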

How the data were processed

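Small intestinal epithelium of 6 mice was sequenced with the QuantSeq 3′ mRNA kit, per the labels' protocols. The authors deposited whole-number read counts per gene, not normalized, in 1 table. Per the submitters' processing notes the tools were BWA 0.7.17-r1188, HTSeq 0.11.2, SAMtools 1.10 and FastQC 0.11.2 with the build GRCm38.p6 (mm10). The sources used here do not give the strand setting, the annotation release or any molecular identifiers, so counts are not independent molecules. Left out were 5 summary lines without a gene name, with 38.4% to 48.4% of all counted reads. All 72 members matched GENCODE M21.

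Members and lists were chosen with earlier results of these data known, and the 6 pairs of slopes after their values were seen. The genes named were all expressed members, by sample for the 10 of highest mean and for members past the threshold in an ICZ comparison, and all members past the threshold in a fraction test. Tests ran over all genes kept by filterByExpr with edgeR 4.0.16 (TMM, robust quasi-likelihood F test, Benjamini-Hochberg at 0.05). The fit was also run on simulated counts, with changes larger than most seen here and the same spread for all genes. That run does not show how well changes of the size seen here are found. Slopes and interactions had the mouse as a block. ICZ was compared with vehicle without a block. Labels do not say whether mice came from separate litters or days. The p-values of ICZ against vehicle therefore measure only the spread between these mice. Those of slopes, fraction differences and interactions measure the scatter of libraries within mice and treat libraries as the units. Alternatives were DESeq2 1.42.0, upper quartile normalization, no filter, the block, single replicates left out, F5 left out and, chosen after seeing the data, single F5 libraries left out. Signs within replicate pairs and overlap within fractions were counted after seeing the data. Over 28 pairs of replicate libraries the chi-square per degree of freedom was 5.18 to 111, so none was a repeat. In the summed counts and in F2, deviations from the group means went together in vehicle and ICZ mice of the same number. Correlations across genes were 0.381, 0.247 and 0.472 for the summed counts and 0.185, 0.108 and 0.168 in F2. No label says that these mice were paired, and they are different animals. Any pairing by number is read from the same counts that the replicate block is applied to, so it is no established paired design. The main ICZ tests and the exact permutation p do not use this pairing, so fits with the replicate block are given beside them. In F3 to F5 the numbers did not all pair, and F1 had 2 pairs. Correlations of equal numbers were 0.257, 0.014 and 0.18 in F3, 0.328, 0.012 and 0.059 in F4, and 0.3695, -0.092 and 0.491 in F5. Vehicle mouse 2 correlated more with ICZ mouse 3 in F3 (0.1025) and F4 (0.212), and with ICZ mouse 1 in F5 (0.2035). Vehicle mouse 3 correlated more with ICZ mouse 2 in F4 (0.1635). The library titled Undetermined entered no comparison, and an F1 library of ICZ mouse 3 was not analysed here.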

Additional observations from a re-analysis of the deposited data

Results flagged for a closer look

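The library whose label names neither treatment nor fraction, which entered no comparison, held 17834 reads of the 72 P450 genes among 7484796 gene reads, or 2383 CPM before TMM scaling. In it 30 members had more than the 3 reads that a count of 0 allows.

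Cyp2c68 in ICZ mice lay above the vehicle mice in 1 fraction and below them in another. In F1 the ICZ mice had 56.1 and 55.2 CPM, above the vehicle mice at 45.7, 53.4 and 47.9. In F3 they had 38.3, 39.8 and 32.5, below the vehicle mice at 50.2, 44.9 and 41.2. The test of a difference of the ICZ effect between fractions gave an edgeR adjusted p of 0.927.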

How the results depend on the processing

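The count of P450 genes falling over the fractions of vehicle mice was 20, and 12 with no replicate block. Leaving out 1 mouse gave 12 to 19, lowest without vehicle replicate 3, and the other settings 18 to 20. The count of members with any difference between fractions was 13, 19 with no filter on low counts and 5 with no replicate block, and 1 to 17 with 1 mouse left out, lowest without vehicle replicate 3. In ICZ mice the 17 that fell became 12 to 18 with 1 mouse left out, lowest without ICZ replicate 2, and 13 without F5. The mouse block changed no other count of these by over 1.5 times. For ICZ against vehicle in F2 to F5 added, 0 became 3 with the replicate block and 1 with no filter on low counts. In F1 it became 1 with no filter. In F2 it became 3 with the replicate block and 1 with no filter. In F3 it became 1 with DESeq2, 2 with no filter, 1 with the replicate block, whose numbers did not all pair there, and 0 to 3 with 1 mouse left out, highest without vehicle replicate 1. For the difference of the ICZ effect between fractions it became 1 with no filter. In F4, F5 and the slope of the ICZ effect it was 0 in every setting run. The log2 fold change of Cyp2u1 in F5, 0.06, was -0.028 without ICZ replicate 1 and -0.033 without vehicle replicate 2, and ranged from -0.033 to 0.20 with 1 mouse left out. The cause of these shifts was not tested. For single members, 26 of 180 vehicle slopes and 11 of 153 ICZ slopes over the settings lost the call, and all kept their direction. Depth limits members under 1 CPM, few of which had enough reads to be tested.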
